A study of Sparus aurata with 9 samples.

Results

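White skeletal muscle of gilthead seabream (Sparus aurata) induced to swim at 2 body lengths per second (BL/s) was compared with white muscle of fish kept at minimal flow. The comparison used the count columns of the 6 fish that the labels put in these groups, of 9 fish in all, and every gene model of the table. The table held 61849 gene models, 13487 of them with a count in the 6 fish, and 3947 passed the low-count filter and were tested.

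All fish were juveniles from a commercial farm, and each group was held in 1 tank for 8 months. Fish of the 2 BL/s tank swam steadily against a current set to 2 body lengths per second, whereas fish of the minimal flow tank moved freely. The other 3 fish of the series swam at 1 BL/s. RNA came from 3 separate fish per tank, chosen by the study as fish of like size and normal shape. With 1 tank per speed, speed and tank cannot be told apart, and the p-values measure the spread between fish of a tank.

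White muscle is the fast-contracting bulk of the fish trunk. Its fibres run on glycolysis and creatine phosphate, power bursts of swimming and are recruited during sustained swimming as the speed goes up. Exercise training in vertebrate muscle is known to act on fibre type, protein turnover, energy metabolism, blood vessels and the matrix around fibres, through calcium, mechanical load and energy signals.

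The fish had between 3660245 and 5267310 counts each, of which the 10 most abundant gene models took 58 to 60.1%. Fast myosin heavy chains, glycolytic enzymes and muscle creatine kinase were among these, as white muscle should have. Markers of slow and red muscle, the fibre type beside white muscle under the skin, summed to between 7.73 and 24.8 normalized counts in 5 of the 6 fish and to 983 in fish 2 at 2 BL/s. Minimal flow fish 2 lay at 34.3 on the first principal component, and the other 5 fish between -17.1 and -1.23. Named calls that moved most with these fish are given with and without them. In bulk tissue, fewer cells of a type and less RNA per cell cannot be told apart.

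Of the 3947 gene models tested, 176 (4.46%) passed an unadjusted p of 0.05, the threshold the study used, against 197 expected if no gene model differed. Among them 69 (1.75%) were higher at 2 BL/s and 107 (2.71%) were lower. After Benjamini-Hochberg adjustment of the edgeR quasi-likelihood test 0 gene models (0%) passed, with 1 by DESeq2 and 0 by limma, and the smallest adjusted p by edgeR was 0.996. The p-values were spread evenly, with 176 to 235 gene models in each of 20 bins, and the bin of the smallest p-values held the fewest. Below, rose and fell refer to the unadjusted threshold only, and each such call is 1 of a set no larger than expected by chance.

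**Figure D1:**
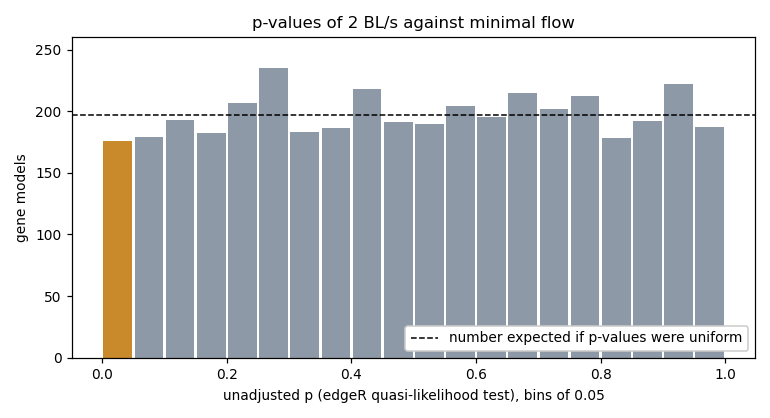
Number of gene models (vertical axis) in bins of 0.05 of the unadjusted edgeR p-value (horizontal axis) for 2 BL/s against minimal flow, with the bin below 0.05 in orange and the even expectation of 197 as a dashed line. The first bin held 176 gene models and the bins ranged up to 235.

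In 384 gene models (9.73%) the 3 fish at 2 BL/s did not overlap with the 3 fish at minimal flow, 177 (4.48%) with 2 BL/s above and 207 (5.24%) with 2 BL/s below. Without any difference between the groups, a share of 0.1 is expected not to overlap, the smallest p of an exact permutation test here. The share seen was no larger. Of the 176 called gene models, 130 were among these, 52 higher and 78 lower. Gene models named below for small p-values were picked from these 130, so their lack of overlap is not a further result. The median size of the called log2 fold changes was 0.96, and 82 exceeded a factor of 2, of which 39 were higher and 43 lower. Many calls were lost without single fish, and 35 of the 176 (12 higher and 23 lower) were kept when each of the 6 fish was left out in turn. A fit without a fish has less power, so a call can be lost at a similar log2 fold change. These fits reuse the same fish, so a kept call is not separate support. The split of calls into higher and lower depended on scaling. It was 69 and 107 with TMM factors, 82 and 89 with upper-quartile factors, 249 and 31 with total counts, and 295 and 270 without the low-count filter. Total-count scaling moved the median log2 fold change of all gene models to 0.22, so that directions below are relative to the median gene model.

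Enzymes of one-carbon, serine and creatine metabolism held the smallest p-values among those that fell. Of 18 tested gene models in this list, 5 fell and none rose (27.8% called, against 4.46% of all gene models). This list and those below were chosen with earlier results of these data known, so their shares of called members are descriptive only. In the present list the median log2 fold change was -0.12, against 0.00 for all gene models. These enzymes move single carbon units between serine, folate, methionine and the methyl groups used to make creatine, the phosphate store of fast fibres. The mitochondrial-like bifunctional methylenetetrahydrofolate dehydrogenase (Sa_11458.3.1), a folate enzyme, had 456, 384 and 309 normalized counts at 2 BL/s, against 678, 745 and 811 at minimal flow. All fish at 2 BL/s were below all fish at minimal flow, and the log2 fold change was -0.96 (SE 0.20). L-serine dehydratase/L-threonine deaminase (Sa_55100.1.1), which breaks down serine and threonine, had 210, 131 and 57.7 normalized counts at 2 BL/s, against 378, 884 and 480 at minimal flow. The groups again did not overlap, with a log2 fold change of -2.13 (SE 0.46) that lay between -2.63 and -1.70 when single fish were left out. Its adjusted p was 0.996 by edgeR, 0.00536 by DESeq2, 1.09e-12 by edgeR without the low-count filter and 0.573 to 1 in the remaining alternatives, with lower values in 3 of 3 fish. The fit without the filter stood apart, with 92 gene models past the adjusted threshold. There was 1 with DESeq2 and 0 in every other setting.

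Guanidinoacetate N-methyltransferase (Sa_26858.1.1), which completes creatine synthesis, had 1428, 1140 and 1343 normalized counts at 2 BL/s, against 2838, 1674 and 2088 at minimal flow. No fish overlapped, and the log2 fold change was -0.75 (SE 0.21). An S-adenosylmethionine synthase-like gene model (Sa_12334.4.1), of the enzyme that makes the methyl donor, had 11.6, 8.16 and 11.5 normalized counts at 2 BL/s, against 18.6, 90.1 and 25.3 at minimal flow. The log2 fold change of -2.07 (SE 0.60) was -1.08 without minimal flow fish 2, the highest fish. Of the muscle creatine kinases, which pass phosphate between creatine and ATP, Sa_49005.2.1 fell with a log2 fold change of -0.36 (SE 0.15) and fish that overlapped. That call was lost without 2 BL/s fish 2 (-0.30) or 3 (-0.29), without minimal flow fish 1 (-0.29) or 3 (-0.34), and with total-count scaling, DESeq2 or the 9 fish fitted jointly. A further muscle creatine kinase model, Sa_22826.1.1, had a log2 fold change of -0.34 (SE 0.16, unadjusted p 0.06).

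Among gene models that rose, 3 described as myomegalin, a scaffold protein of the centrosome and Golgi, had small p-values. Myomegalin-like isoform X3 (Sa_23936.2.1) had 70.6, 44.9 and 42.3 normalized counts at 2 BL/s, against 14.5, 14.6 and 22.6 at minimal flow. Myomegalin isoform X8 (Sa_23937.1.1) had 47.4, 28.6 and 39.5 at 2 BL/s, against 7.25, 4.5 and 17.2 at minimal flow. Isoform X4 (Sa_28298.1.1) had 19.3, 19.4 and 15.4 at 2 BL/s, against 3.11, 4.5 and 7.23 at minimal flow. In all 3 gene models every fish at 2 BL/s exceeded every fish at minimal flow, with log2 fold changes of 1.59 (SE 0.34), 1.95 (SE 0.46) and 1.82 (SE 0.45). Similar isoform models can share reads, so these are not 3 independent observations. All 3 calls were kept without each fish in turn.

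Across the 42 tested gene models of centrosome, microtubules and motors, 4 rose and 2 fell, with a median log2 fold change of -0.01. The share called was 14.3%, against 4.46% of all gene models. The other member that rose was gamma-tubulin complex component 5 (Sa_44691.3.1), part of the complex from which microtubules grow, with 26.1, 16.3 and 32.7 normalized counts at 2 BL/s, against 13.5, 9.01 and 15.4 at minimal flow. The groups did not overlap (log2 fold change 0.97, SE 0.39), but the call was lost without fish 1 or 3 at 2 BL/s or fish 1 or 2 at minimal flow (down to 0.73). Nuclear distribution nudE-like 1-B (Sa_9394.12.1), a partner of the dynein motor, fell, with 42.5, 34.7 and 39.5 normalized counts at 2 BL/s, against 91.1, 104 and 61.5 at minimal flow. Its log2 fold change was -1.13 (SE 0.27), without overlap. Microtubule affinity-regulating kinase 3 (Sa_17527.7.1) was the other member that fell, at -0.75 (SE 0.31), a call lost without any fish but minimal flow fish 2 (-0.93 to -0.51).

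Ion channels were mostly lower among the calls. Of 32 tested ion channel models, 1 rose and 5 fell (18.8% called, against 4.46% of all gene models), with a median log2 fold change of -0.06. The 5 were all described as sodium channel type 4 alpha B-like or anoctamin-1-like. Similar models can share reads, so these are not 5 independent observations. A sodium channel type 4 alpha B-like gene model (Sa_27160.1.1), of the channel that carries the muscle action potential, had 15.5, 14.3 and 11.5 normalized counts at 2 BL/s, against 38.3, 37.1 and 26.2 at minimal flow. The groups were well apart, with a log2 fold change of -1.29 (SE 0.33). The call was lost with the stricter count filter and with the 9 fish fitted jointly. A neighbouring model of the same description (Sa_27161.1.1) fell by 0.70 on the log2 scale (SE 0.24), and by 0.56 without 2 BL/s fish 3, when the call was lost. In contrast the accessory sodium channel subunit beta-1 (Sa_27283.7.1) rose by 0.90 (SE 0.33), with 27.1, 36.7 and 24.1 normalized counts at 2 BL/s, against 16.6, 16.9 and 13.6 at minimal flow. That call was lost without 2 BL/s fish 2 or minimal flow fish 3, at log2 fold changes between 0.70 and 1.02 in the 6 fits without a fish.

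Gene models described as anoctamin-1-like, a calcium-activated chloride channel, made up the other 3 channel models that fell. Isoform X2 (Sa_30494.1.1) had 43.5, 34.7 and 41.4 normalized counts at 2 BL/s, against 70.4, 61.9 and 83.2 at minimal flow, a log2 fold change of -0.85 (SE 0.25) that was kept without each fish in turn. The others (Sa_39344.1.3 and Sa_1519.2.1) had log2 fold changes of -1.76 (SE 0.56) and -0.82 (SE 0.32). The first lost its call without 2 BL/s fish 3 (-1.50) and was not tested without minimal flow fish 3, and the other lost it without 2 BL/s fish 1 or 2 or minimal flow fish 1 (-1.22 to -0.60 over the 6 fits). In none of the 3 did the groups overlap.

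Of 24 tested gene models of calcium handling, 1 rose and 3 fell (16.7% called, against 4.46% of all gene models), with a median of -0.14. The list covers the sarcoplasmic reticulum, the calcium store of the fibre, and other calcium proteins. Among the called members, only the one that rose is described as a protein of the reticulum. A calcium channel subunit of the alpha-2/delta type (Sa_23073.2.1) had 1112, 905 and 1294 normalized counts at 2 BL/s, against 1579, 1486 and 1558 at minimal flow (log2 fold change -0.48, SE 0.18). Parvalbumins buffer calcium so that fast fibres relax quickly, and the beta-like (Sa_25940.5.1) and alpha (Sa_5750.8.1) models had log2 fold changes of -0.56 (SE 0.22) and -0.47 (SE 0.19), with overlapping fish in both. All 3 calls were lost with total-count scaling, without 2 BL/s fish 2 and without minimal flow fish 3, and those of the parvalbumins also without minimal flow fish 1, with values over all fits of -0.62 to -0.36, -0.75 to -0.40 and -0.68 to -0.35 (the last was lost without 2 BL/s fish 3 too). The member that rose, a histidine-rich calcium-binding protein of the reticulum (Sa_14016.2.1), had 50.3, 196 and 78 normalized counts at 2 BL/s, against 39.3, 32.6 and 57.8 at minimal flow. Fish 2 at 2 BL/s, the fish with slow muscle markers, was the highest, and without it the log2 fold change was 0.55 in place of 1.31 (SE 0.47) and the call was lost, as it was without minimal flow fish 1 or 2 (up to 1.65).

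Contractile genes were called mostly downward. Of 42 tested gene models of myosin, actin, troponin and tropomyosin, 1 rose and 8 fell, although the median was -0.02. The share called was 21.4%, against 4.46% of all gene models. The fast skeletal myosin heavy chains, the motor of white fibres, held 7 of the 8, with 22 tested and none called higher. Of all gene models, 2.71% were called lower. Their median log2 fold change was -0.34, with 14 negative and 8 positive values, from -2.21 to 2.39. As similar models can share reads, these are not 7 independent observations. The most abundant of these (Sa_53203.1.1) had 116772, 85549 and 90034 normalized counts at 2 BL/s, against 130656, 131852 and 135111 at minimal flow. All fish at 2 BL/s were below minimal flow, with a log2 fold change of -0.44 (SE 0.14), but the call was lost with DESeq2 and with the 9 fish fitted jointly. A much rarer model (Sa_24470.1.1) had 195, 186 and 96.2 normalized counts at 2 BL/s, against 1620, 206 and 390 at minimal flow. Its log2 fold change of -2.21 (SE 0.66) rested in good part on minimal flow fish 1, and was -0.91 without that fish. The number of contractile members that fell was 3 with total-count scaling, 2 by DESeq2, 5 in a joint fit of the 9 fish, and from 4 (without minimal flow fish 3) to 16 (without minimal flow fish 2).

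The gene model described as alpha cardiac (Sa_24785.4.1), the second most abundant of all, had 645839, 481794 and 550711 normalized counts at 2 BL/s, against 941807, 658452 and 706892 at minimal flow. Its log2 fold change was -0.46 (SE 0.17), and the call was lost without 2 BL/s fish 2 (-0.37) or minimal flow fish 1 (-0.30). The contractile member that rose was a myosin regulatory light chain (Sa_15173.2.1), with 6361, 18176 and 6602 normalized counts at 2 BL/s, against 2683, 3552 and 7578 at minimal flow. The groups overlapped, and without 2 BL/s fish 2 its log2 fold change was 0.49 in place of 1.17 (SE 0.47), without a call, which was also lost without minimal flow fish 1 or 2 (up to 1.74). In the Z-disc and titin list 1 of 20 rose and 1 fell (10% called, against 4.46% of all), with a median of -0.24. Of its members 5 had a positive and 15 a negative log2 fold change. Alpha-actinin-3 (Sa_19188.6.1) fell, with 76634, 69909 and 79299 normalized counts at 2 BL/s, against 96552, 85023 and 91784 at minimal flow, without overlap. Its log2 fold change was -0.28 (SE 0.12), a call lost without 2 BL/s fish 2 or 3 or minimal flow fish 1 or 3 (-0.33 to -0.23). The titin cap protein telethonin-like (Sa_27153.4.1) had 154, 209 and 248 normalized counts at 2 BL/s, against 136, 128 and 146 at minimal flow, with no overlap. Its log2 fold change of 0.58 (SE 0.23) was 0.40 to 0.74 without single fish, and the call was kept only without 2 BL/s fish 1.

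Energy metabolism had few calls. None passed of 28 gene models of glycolysis and glycogen, 51 of respiratory chain complexes and ATP synthase, and 16 of the citric acid cycle, with medians of -0.05, 0.01 and 0.10. Fish 2 at 2 BL/s, the fish with slow muscle markers, had the highest sums of the respiratory chain and citric acid cycle lists. These were 20841 and 18002 normalized counts, against 17212 to 19748 and 14185 to 15645 in the other fish. Its part in the medians was not tested. The most abundant gene model of all, the glycolytic enzyme glyceraldehyde-3-phosphate dehydrogenase (Sa_31172.5.1), had 784289, 678572 and 749995 normalized counts at 2 BL/s, against 794914, 771130 and 839118 at minimal flow (log2 fold change -0.12, SE 0.11). L-lactate dehydrogenase A (Sa_14981.3.1), which makes lactate, was at -0.05 (SE 0.15). At 3 fish per group, a log2 difference of the size of these SE was not detectable. Of 27 gene models of fatty acid uptake and oxidation 2 fell (7.41% called, against 4.46% of all gene models). These were the heart-type fatty acid-binding protein (Sa_36059.3.1, log2 fold change -0.63, SE 0.27, lost without 2 BL/s fish 1 or 3 or minimal flow fish 2 or 3, -0.87 to -0.37) and the coactivator PGC-1 alpha, described with minimal flow fish 2 below.

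Cytosolic ribosomal proteins differed in the same direction almost throughout. Of 39 tested gene models, 23 of the large and 16 of the small subunit, 11 fell and none rose (28.2% called lower, against 2.71% of all gene models), 37 had a negative log2 fold change, and the median was -0.31. In 26 of the 39 (66.7%, against 5.24% of all gene models) all fish at 2 BL/s were below all fish at minimal flow. The members share depth and scaling, so they are not 39 separate observations. Their sum was 67647, 63579 and 66505 normalized counts at 2 BL/s, against 86937, 75854 and 85266 at minimal flow. A share of all counts amounts to total-count scaling. As such a share, the sum was 1.52, 1.7 and 1.66% at 2 BL/s, against 1.74, 1.7 and 1.79% at minimal flow. The groups were thus apart after TMM scaling and met at 1.7% as a share of counts.

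Among single members, L7a of the large subunit (Sa_59.2.1) had 4164, 3964 and 3873 normalized counts at 2 BL/s, against 5583, 5014 and 5173 at minimal flow. S8 of the small subunit (Sa_32517.2.1) had 3962, 3664 and 3720 at 2 BL/s, against 5277, 4481 and 5136 at minimal flow. Both had a log2 fold change of -0.39 (SE 0.14), which lost the call without 2 BL/s fish 3 or minimal flow fish 1 (-0.38 and -0.36 for L7a), with total-count scaling and with DESeq2. That of S8 was also lost without minimal flow fish 3 (-0.37) and with the 9 fish fitted jointly. L18 (Sa_10922.5.1) had the lowest of the list, -0.54 (SE 0.16). Of the others, L19 (Sa_11897.5.1) at 0.21 (SE 0.20) and the ribosome export factor NMD3 at 0.05 (SE 0.20) were the only ones with positive values. With total-count scaling the median of the list was -0.09, while that of all gene models was 0.22, and 0 members fell. With DESeq2 2 fell, and the count without single fish ranged from 2 (without 2 BL/s fish 3 or minimal flow fish 1 or 3) to 14 (without minimal flow fish 2). None of 43 mitochondrial ribosomal proteins was called, and their median was 0.08. Their sum was highest in 2 BL/s fish 2, at 2737 normalized counts, against 2068 to 2603 in the other fish. Of 31 translation factors 1 fell (3.23% called, against 4.46% of all gene models). This was elongation factor 1-gamma (Sa_36102.3.1), at -0.33 (SE 0.14), a call kept only without 2 BL/s fish 1 (-0.42 to -0.28).

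**Figure D2:**
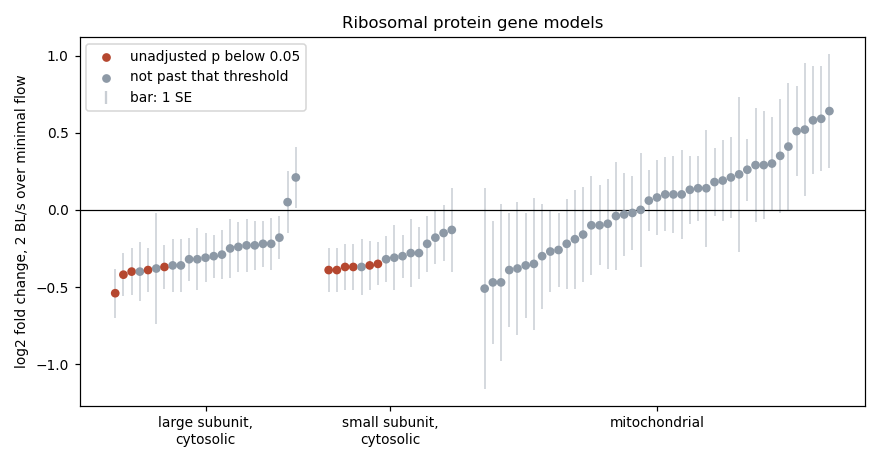
Log2 fold change of 2 BL/s over minimal flow (vertical axis) for each tested ribosomal protein gene model, ordered within the large cytosolic, small cytosolic and mitochondrial groups, with bars of 1 SE and red points for an unadjusted p below 0.05. Of the 39 cytosolic members 37 lie below 0, against 19 of the 43 mitochondrial ones.

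Signals to blood vessels, immune cells and transcription gave single calls rather than groups. Angiopoietin-1 (Sa_33932.2.1), a ligand that stabilises vessels, had 49.3, 74.5 and 49.1 normalized counts at 2 BL/s, against 18.6, 38.3 and 22.6 at minimal flow. No fish overlapped (log2 fold change 1.12, SE 0.34). Of 18 tested vessel gene models 1 rose and 1 fell (11.1% called, against 4.46% of all gene models), with a median of -0.12. In this list 4 had a positive and 14 a negative log2 fold change, so angiopoietin-1 went against most members. The member that fell was hypoxia-inducible factor 1-alpha-like (Sa_12477.1.1), the oxygen-sensing transcription factor. It had 352, 314 and 226 normalized counts at 2 BL/s, against 359, 867 and 511 at minimal flow. Its log2 fold change was -0.96 (SE 0.32), and -0.56 without minimal flow fish 2, when the call was lost.

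MHC class II antigen beta (Sa_41427.1.1), which presents antigen to helper T cells, had 31.9, 39.8 and 45.2 normalized counts at 2 BL/s, against 25.9, 10.1 and 11.7 at minimal flow. The groups did not overlap, and the log2 fold change was 1.29 (SE 0.40). All 6 tested gene models of antigen presentation had positive log2 fold changes, with a median of 0.61, but the other 5 did not pass. Among these, a class II gamma chain (Sa_5425.1.1) had 207, 489 and 344 normalized counts at 2 BL/s, against 160, 321 and 218 at minimal flow, with overlap. Leukocyte markers summed to 200, 251 and 305 normalized counts at 2 BL/s, against 197, 276 and 227 at minimal flow, and 0 of 6 tested were called. Their part in the result was not tested.

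Of the remaining gene models with the smallest p-values, spermine synthase (Sa_37592.3.1), which makes the polyamine spermine, had 43.5, 75.5 and 80.8 normalized counts at 2 BL/s, against 35.2, 39.4 and 28 at minimal flow. It rose with a log2 fold change of 0.96 (SE 0.31). Dmrt2b (Sa_18411.1.1), a DM-domain transcription factor, had 30, 38.8 and 17.3 normalized counts at 2 BL/s, against 8.28, 5.63 and 16.3 at minimal flow. The nearest fish of the groups were only 1 count apart on this scale, and the call (log2 fold change 1.47, SE 0.47) was lost without 2 BL/s fish 2 (1.19). Ribonuclease kappa (0.96, SE 0.29), dual specificity phosphatase 22-A-like (0.88, SE 0.28), apoptogenic mitochondrial protein (1.12, SE 0.35) and the KIAA0319 homolog (1.18, SE 0.34) rose without overlap and kept the call without each fish in turn.

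The transcription factor scleraxis marks tendon cells and the myotendinous tissue that carries muscle force. A scleraxis-like gene model (Sa_52057.3.1) had 417, 336 and 320 normalized counts at 2 BL/s, against 620, 994 and 528 at minimal flow. All fish at 2 BL/s were lower, at 0.501 of the minimal flow level (SE 0.26 on the log2 scale). The log2 fold change lay between -1.17 and -0.69 without single fish, and the call was kept in each fit. The value of -0.69 was that without minimal flow fish 2, the highest fish. The rarer scleraxis model (Sa_24500.4.1) fell by 0.91 on the log2 scale (SE 0.37), a call lost without 4 of the 6 fish at values between -1.22 and -0.76. In the tendon, cartilage and bone list 2 of 14 rose and 3 fell (35.7% called, against 4.46% of all), with a median of -0.22. The members that rose were collagen X and collagen XI alpha-1-like, described with fish 3 at 2 BL/s below, and the last that fell was cartilage oligomeric matrix protein (Sa_37646.3.1), at -0.59 (SE 0.26). The myocyte enhancer factors MEF2C (Sa_52573.1.1) and MEF2A (Sa_24694.6.1), which drive muscle gene expression, fell with log2 fold changes of -1.19 (SE 0.38) and -0.48 (SE 0.21). MEF2C had 33.8, 28.6 and 20.2 normalized counts at 2 BL/s, against 76.6, 31.5 and 79.5 at minimal flow, so minimal flow fish 2 lay among the fish at 2 BL/s. Both calls were lost without minimal flow fish 3 (-0.97 for MEF2C), and that of MEF2A without every fish but 2 BL/s fish 2 (-0.63 to -0.32).

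Of 87 gene models of actin cytoskeleton and adhesion 6 fell and 2 rose (9.2% called, against 4.46% of all gene models). The median was -0.03, and 41 had a positive and 46 a negative log2 fold change. Cordon-bleu (Sa_18455.1.1), a nucleator of actin filaments, had 230, 190 and 152 normalized counts at 2 BL/s, against 365, 329 and 317 at minimal flow, and MTSS1 (Sa_2642.1.1), which binds actin and bends membranes, had 16.4, 31.6 and 22.1 at 2 BL/s, against 89, 52.9 and 41.6 at minimal flow. Neither overlapped (log2 fold changes -0.82, SE 0.22, and -1.38, SE 0.37). Outside this list, and named for their small p-values, dynamin-2-like (-1.96, SE 0.49), a GTPase of membrane fission, and the palmitoyltransferase ZDHHC2 (-1.01, SE 0.27), which anchors proteins to membranes, fell as well. The lowest log2 fold change among the named gene models was that of phosphatase 1 regulatory subunit 27-like (Sa_13624.2.2), at -3.14 (SE 0.71), from 3, 0 and 3 counts at 2 BL/s, against 27, 11 and 16 counts at minimal flow.

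**Figure D3:**
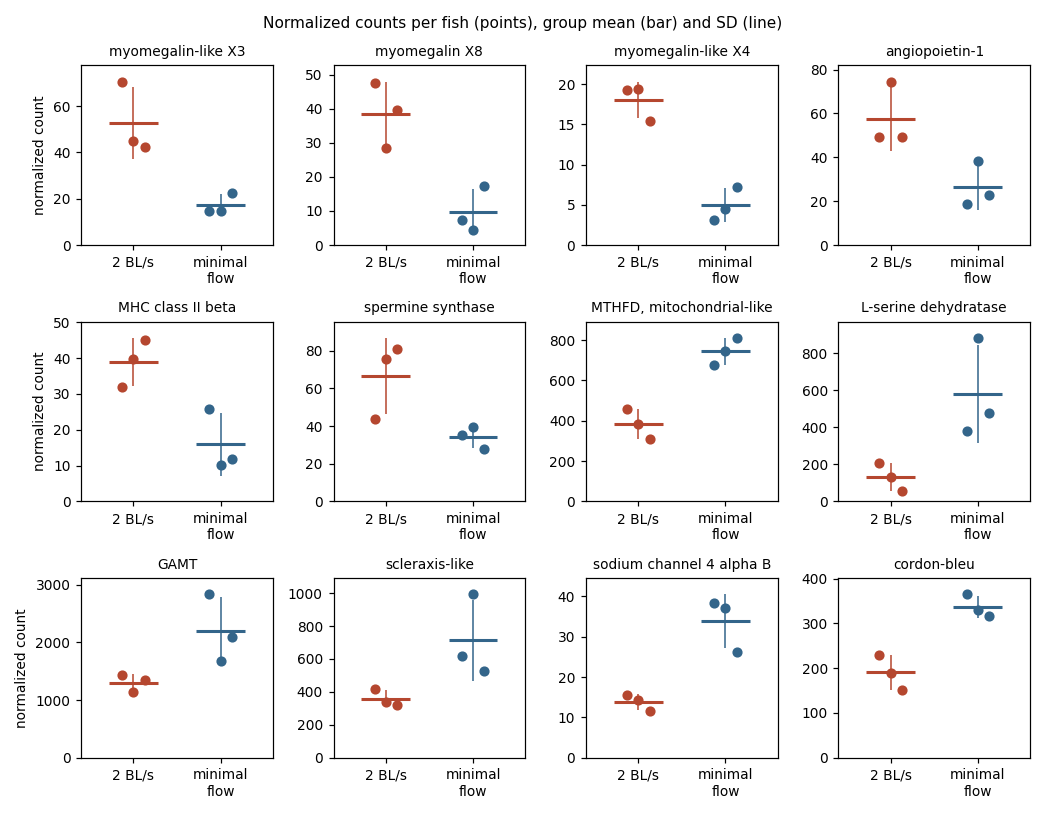
Normalized count (vertical axis, from 0) of 12 named gene models in each fish, with 2 BL/s in red on the left and minimal flow in blue on the right of each panel, points for the 3 fish, horizontal bars for the mean and vertical lines for the SD. The 12 were picked from calls without overlap, so the groups do not overlap in any panel. The methylenetetrahydrofolate dehydrogenase (MTHFD), for example, had 309 to 456 at 2 BL/s against 678 to 811 at minimal flow.

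Further calls came from single fish. A gene model was counted as high in 1 fish when it was at least 5 times above the next of the 6 fish and had at least 30 counts there. This held for 22 gene models in fish 3 and 17 in fish 2 at 2 BL/s, for 9 in minimal flow fish 2, and for 0 in each of the other 3 fish.

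In fish 3 at 2 BL/s the 22 gene models included matrix and bone genes. Collagen X (Sa_2707.1.1), a collagen of growth cartilage and, in fish, of bone-forming cells, had 116, 126 and 6407 normalized counts at 2 BL/s, against 76.6, 56.3 and 85.9 at minimal flow. Its log2 fold change of 4.92 (SE 1.41) was 0.72 without fish 3, and the groups remained apart through the other fish. The call was lost with DESeq2, limma and the replicate block. Collagen V alpha-2 (Sa_15652.1.1) had 12.6, 19.4 and 481 normalized counts at 2 BL/s, against 22.8, 12.4 and 9.04 at minimal flow, and its log2 fold change of 3.54 (SE 1.23) was 0.11 without fish 3, with the call lost, as it was without minimal flow fish 3 (3.26). Papilin-like (Sa_26806.2.1), of the matrix, and a type II cytoskeletal 8-like keratin (Sa_16613.1.1), of epithelia, had 1168 and 1091 counts in that fish, against at most 18 and 89 counts in the other 5.

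Genes known for bone formation were high in the same fish at lower counts. The transcription factor Sp7 (Sa_25893.1.1), which commits cells to the osteoblast fate, had 0, 3 and 31 counts at 2 BL/s, against 0, 0 and 1 at minimal flow. Osteopontin-like (Sa_20746.1.1), a bone matrix protein, had 0, 2 and 43 counts at 2 BL/s, against 6, 2 and 0 at minimal flow. A lysine 6-oxidase model (Sa_42555.2.1), which cross-links collagen, had 1, 4 and 277 counts at 2 BL/s, against 3, 1 and 1 at minimal flow. Only fish 3 stood out in each of them. Of the 22 gene models 8 were tested and 7 called higher. Markers of skin and epithelium summed to 863, 968 and 1262 normalized counts at 2 BL/s, against 1108, 496 and 861 at minimal flow. Most of this sum came from a mucin-17-like model (Sa_16698.5.1), and the keratin named above is not in that list. A desmoplakin-like model (Sa_9195.2.1) had 6, 3 and 46 counts at 2 BL/s, against 18, 7 and 8 at minimal flow. Desmoplakin isoform X2 (Sa_5991.2.4) had 63, 84 and 99 counts, against 70, 54 and 79. What this sample held beside muscle was not tested.

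Among collagens in general, 3 of 33 rose and 1 fell (12.1% called, against 4.46% of all gene models), with a median of 0.05. Collagen XI alpha-1-like (Sa_13187.3.1), a fibril collagen of cartilage, had 153, 289 and 385 normalized counts at 2 BL/s, against 72.5, 125 and 185 at minimal flow. The groups overlapped, and the log2 fold change of 1.11 (SE 0.40) was 0.78 without fish 3, with the call lost, as it was without 2 BL/s fish 2 (1.07) or minimal flow fish 1 (0.81). Of the 46 other matrix and remodelling gene models 3 rose and none fell (6.52% called, against 4.46% of all), with a median of 0.21. One of them was hyaluronan and proteoglycan link protein 1 (Sa_14240.2.1), which ties proteoglycans to hyaluronan, with 153, 187 and 156 normalized counts at 2 BL/s, against 102, 123 and 74.1 at minimal flow. No fish overlapped there (log2 fold change 0.73, SE 0.25), but the call was lost without 2 BL/s fish 2 (0.63) or minimal flow fish 3 (0.55).

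In fish 2 at 2 BL/s the 17 gene models included genes of slow fibres, with 7 in the slow and red muscle list and 10 in the contractile list. A slow troponin (Sa_2545.1.1) had 3, 364 and 5 counts at 2 BL/s, against 9, 4 and 8 at minimal flow. A myosin-7-like model (Sa_24704.1.1), of slow myosin, had 1, 205 and 0 counts at 2 BL/s, against 2, 0 and 1 at minimal flow. Myosin light chain 3 (Sa_27480.1.1) had 0, 303 and 1 counts at 2 BL/s, against 12, 4 and 2 at minimal flow. Slow markers were thus at or near 0 in the other 5 fish of both groups. Of these 17 gene models 3 were tested and 0 called. The 17 also held 3 models described as fast myosin heavy chain-like. Of these, Sa_26173.1.1 and Sa_5883.1.1 had 3769 and 1428 normalized counts in this fish, against at most 599 and 158 in the other 5. The last, Sa_9769.1.1, had 0, 1074 and 3 counts at 2 BL/s, against 14, 0 and 2 at minimal flow.

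Minimal flow fish 2 was high in 9 gene models, some of them known from muscle protein breakdown. MuRF1 (Sa_36880.1.1), a ubiquitin ligase that rises in wasting muscle, had 307, 531 and 435 normalized counts at 2 BL/s, against 304, 2875 and 533 at minimal flow. Kelch 38 (Sa_22677.1.1) had 67.7, 168 and 89.5 at 2 BL/s, against 46.6, 1431 and 212 at minimal flow. Krueppel-like factor 9 (Sa_50120.1.1), a target of glucocorticoids, had 86, 35.7 and 23.1 at 2 BL/s, against 51.8, 645 and 84.1 at minimal flow. In each of the 3 the groups overlapped, and each fell by the test. Their log2 fold changes of -1.54, -2.37 and -2.42 (SE 0.69, 0.95 and 0.88) were 0.01, -0.27 and -0.50 without that fish, and all 3 calls were lost. They were lost as well without 2 BL/s fish 3 (-1.57, -2.26 and -2.09), that of MuRF1 without 2 BL/s fish 1 (-1.36) or 2 (-1.74), that of kelch 38 without 2 BL/s fish 1 (-2.13) and that of Krueppel-like factor 9 without 2 BL/s fish 2 (-2.25).

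The same fish was the highest for other regulators of turnover. FoxO3 (Sa_6033.1.1), which switches on the wasting genes, had 152, 103 and 81.8 normalized counts at 2 BL/s, against 167, 660 and 144 at minimal flow. DNA damage-inducible transcript 4 (Sa_21557.6.1), an inhibitor of the growth kinase mTOR, had 99.6, 24.5 and 31.8 at 2 BL/s, against 58, 423 and 85.9 at minimal flow. PGC-1 alpha (Sa_30678.1.1), the coactivator of mitochondrial genes, had 30.9, 12.2 and 27.9 at 2 BL/s, against 18.6, 224 and 51.5 at minimal flow. Their log2 fold changes of -1.52 (SE 0.54), -1.85 (SE 0.76) and -2.03 (SE 0.77) were -0.47, -0.48 and -0.58 without that fish, and the calls were lost. They were lost also without 2 BL/s fish 2 (-1.47, -1.52 and -1.73), and those of FoxO3 and DNA damage-inducible transcript 4 without 2 BL/s fish 3 (-1.34 and -1.60). The FoxO, atrogene and mTOR list held 3 gene models that fell of 24 tested, and none that rose (12.5% called, against 4.46% of all). The 3 were FoxO3, DNA damage-inducible transcript 4 and MuRF1.

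Krueppel-like factor 13 (Sa_36002.1.1), a transcription factor, was also highest in that fish, with 25.1, 20.4 and 10.6 normalized counts at 2 BL/s, against 42.4, 182 and 30.7 at minimal flow. No fish overlapped, and its log2 fold change of -2.17 (SE 0.66) was -0.97 without minimal flow fish 2, with the call kept. The metalloreductase STEAP4 (Sa_9253.2.3), an enzyme of iron and copper uptake, had 23.2, 10.2 and 8.66 at 2 BL/s, against 34.2, 126 and 32.5 at minimal flow, and was at -1.25 without that fish in place of -2.17 (SE 0.61), again with the call kept. Over all 107 gene models that fell, minimal flow fish 2 was the highest fish in 45, against 35 and 27 for minimal flow fish 1 and 3. None of 23 proteasome and 36 autophagy and lysosome gene models was called, with medians of 0.18 and 0.12. The proteasome list summed to 1672 normalized counts in minimal flow fish 2, against 1837 to 2574 in the other fish. The autophagy and lysosome list summed to 2742 in that fish, against 2562 to 2962 in the others.

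**Figure D4:**
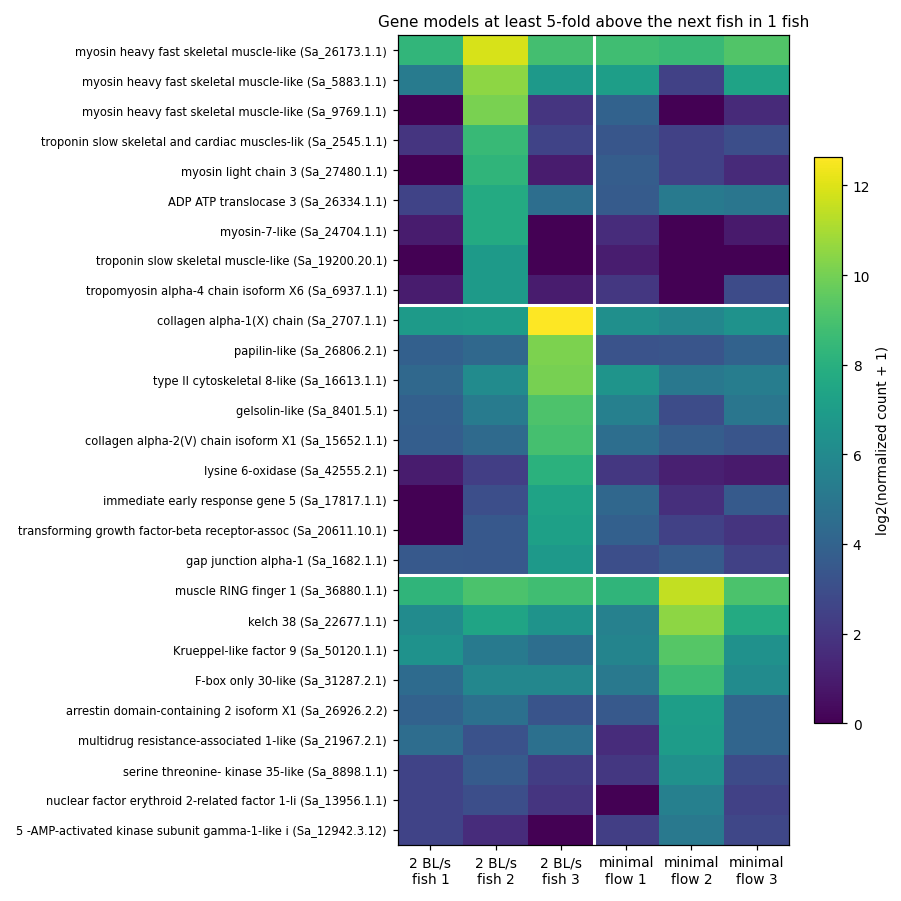
Heat map of log2(normalized count + 1) for up to 9 gene models per fish that were at least 5 times above the next fish, with gene models in rows and the 6 fish in columns (2 BL/s left, minimal flow right). The blocks are those of 2 BL/s fish 2 (contractile genes), 2 BL/s fish 3 (matrix genes, collagen X at 6407 normalized counts) and minimal flow fish 2 (MuRF1 at 2875).

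Of the 41 pathway lists, 8 had no called member, and list medians ranged between -0.32 and 0.61. Protein phosphatases had 4 higher and 1 lower of 51 (9.8% called, against 4.46% of all gene models). Among those that rose was calcineurin B homologous 1 (Sa_13400.8.1), a regulator related to the calcium-dependent phosphatase calcineurin. It had 24.2, 17.3 and 20.2 normalized counts at 2 BL/s, against 13.5, 6.75 and 4.52 at minimal flow. The groups did not overlap, and the call (log2 fold change 1.32, SE 0.46) was lost without 2 BL/s fish 1 (1.18) or minimal flow fish 3 (1.01). Immediate early and stress genes had 2 higher and 4 lower of 14 (42.9% called, against 4.46% of all gene models). Of the 4 lower, Krueppel-like factors 9 and 13 are given above, and growth arrest and DNA damage-inducible gamma (Sa_11765.1.1) and Krueppel-like factor 10 (Sa_8731.1.1) had log2 fold changes of -1.14 (SE 0.41) and -0.90 (SE 0.37). Without minimal flow fish 2 the call of Krueppel-like factor 13 was kept and the other 3 were lost, at -0.50 for Krueppel-like factor 9 and -0.70 for the gamma model. The gamma and Krueppel-like factor 10 calls were lost as well without 2 BL/s fish 2 or 3, and that of Krueppel-like factor 10 without minimal flow fish 3 (-1.25 to -0.63 without single fish). Heat shock proteins and chaperones had 1 higher and 1 lower of 66, and ubiquitin and its ligases 1 higher and 2 lower of 114, at shares of 3.03 and 2.63% below the 4.46% of all gene models.

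**Figure D5:**
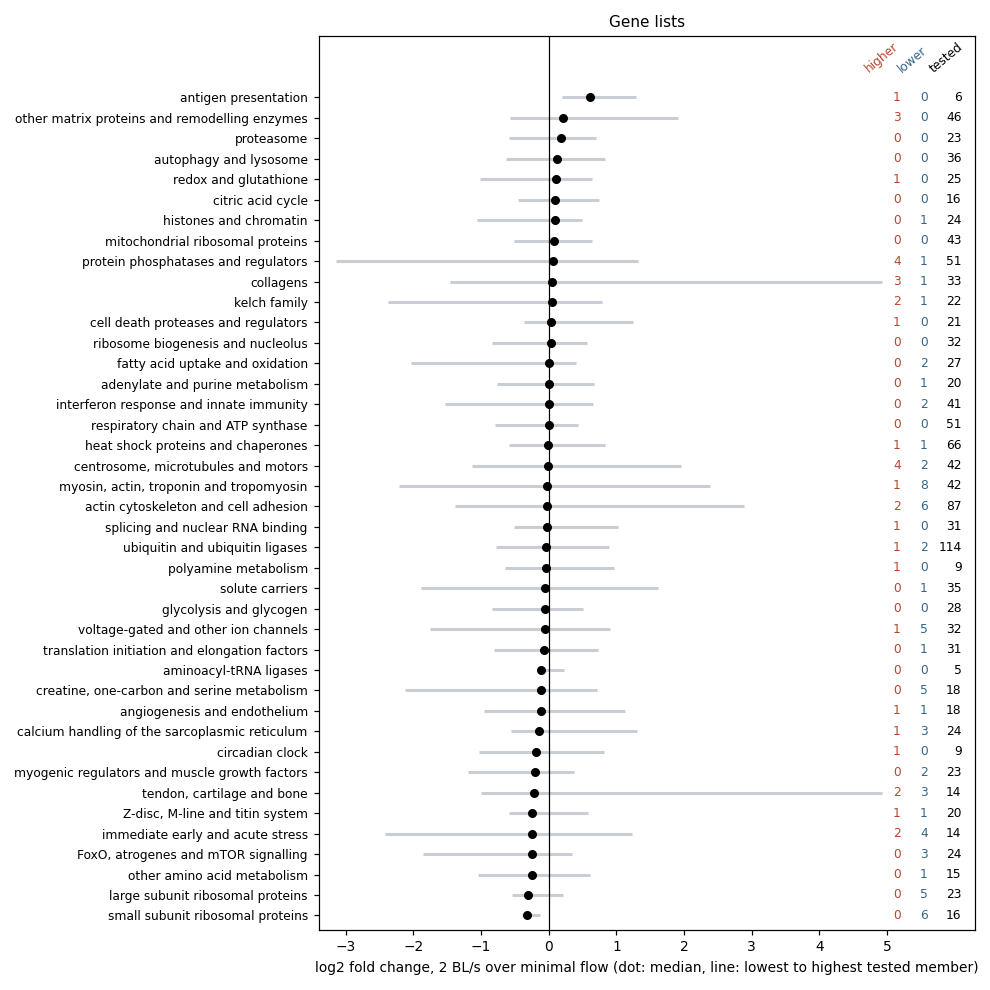
Log2 fold change of 2 BL/s over minimal flow (horizontal axis) for the 41 pathway lists, with dots for the median, lines from the lowest to the highest tested member, and on the right the number of members higher, lower and tested. The 2 cytosolic ribosomal lists have the lowest medians, -0.32 and -0.31, and antigen presentation the highest, 0.61.

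A set of 28 calls, 10 higher and 18 lower, was kept without each fish in turn and under 8 further alternatives, which leaves out only the stricter count filter. It held the 3 myomegalin models, angiopoietin-1, MHC class II beta, spermine synthase, the folate enzyme, L-serine dehydratase, guanidinoacetate N-methyltransferase, the main scleraxis-like model, cordon-bleu and MTSS1. The others included the ligand-dependent nuclear receptor corepressor (Sa_25855.4.1), which silences hormone-receptor targets, with 58, 54.1 and 60.6 normalized counts at 2 BL/s, against 100, 92.3 and 92.2 at minimal flow. Spread within the groups was small there, and the log2 fold change was -0.72 (SE 0.21). All 28 were picked from the 176 calls and refitted with the same fish, so being kept is not separate support. By the main edgeR test each had an adjusted p of 0.996.

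Set beside the fish at 1 BL/s, on normalized counts of all 9 fish, the members differed in shape. Myomegalin-like X3 (Sa_23936.2.1) averaged 16.9 ± 4.55 at minimal flow, 22 ± 19 at 1 BL/s and 51.4 ± 15.2 at 2 BL/s, each the mean and SD of 3 fish. Its values in the fish at 1 BL/s were 41.8, 20.3 and 3.88. The folate enzyme (Sa_11458.3.1) averaged 729 ± 64.3 at minimal flow, 640 ± 300 at 1 BL/s and 374 ± 72 at 2 BL/s. Angiopoietin-1 (Sa_33932.2.1) averaged 25.9 ± 10.1 at minimal flow, 53.4 ± 6.23 at 1 BL/s and 56.3 ± 14.3 at 2 BL/s. For the folate enzyme the fish at 1 BL/s had 536, 406 and 978. They lay on both sides of the minimal flow fish and overlapped only the highest fish at 2 BL/s, at 446. For angiopoietin-1 the fish at 1 BL/s overlapped those at 2 BL/s. L-serine dehydratase (Sa_55100.1.1) had 174, 1071 and 997 at 1 BL/s and so lay above all 3 fish at minimal flow in fish 2 and 3. Fish 3 at 1 BL/s was the lowest of its group for myomegalin-like X3 and the highest for the folate enzyme. It had the fewest gene models with a count of all 9 fish (7780). The differences from 1 BL/s, and the part of that fish in them, were not tested.

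Below the low-count filter lay 9540 gene models with a count. Of those with a usable description, 71 had counts in all 3 fish at 2 BL/s and none at minimal flow. The opposite pattern held for 48. Kelch 41 (Sa_25410.5.1), of a family of ubiquitin ligase adaptors and sarcomere proteins, had 19, 12 and 2 counts at 2 BL/s, against 0 in all 3 fish at minimal flow. With the fish pooled and a floor of 3 counts set for the minimal flow fish, the ratio was 10.7. That ratio is not a bound for single fish, since 2 BL/s fish 3 had 2 counts. At 1 BL/s kelch 41 had 2, 6 and 2 counts. The extracellular calcium-sensing receptor-like model (Sa_49341.1.1) had 3, 2 and 5 counts at 2 BL/s, against 0 in all 3 fish at minimal flow. Its pooled ratio over the same floor was 3.23. Both gene models were picked for having counts in 1 group only, so the ratios are not a separate result. The other 6 gene models named by the same rule had between 9 and 17 counts over the fish at 2 BL/s. At this depth such low counts carry large counting error, and no test was made on them.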

How the data were processed

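White muscle RNA of 9 fish was sequenced from stranded mRNA libraries (TruSeq). The authors used TopHat2 2.0.13, SAMtools 1.2 and HTSeq 0.6.1p1 to align reads and count them, and DESeq to compare groups. Per the study's methods the reads went to an NCBI reference assembly of the species, with secondary alignments removed before counting. The sources used here do not give the strand setting of the counting. The deposited values are raw whole-number counts, 3660245 to 5267310 per fish. The deposited normalized means, fold changes and p-values were not used. Of gene models whose identifier shares its stem with another, 6.75% had a count, against 57.2% of those that stand alone, so values of near-identical models are uncertain.

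Groups came from the treatment labels. Counts were filtered (filterByExpr), scaled by TMM and tested with the edgeR 4.0.16 quasi-likelihood test (R 4.3.3) on the 3 fish at 2 BL/s and the 3 at minimal flow, without covariates, with Benjamini-Hochberg adjustment. The test was checked on simulated counts. A normalized count is the count divided by the effective library size relative to its geometric mean over the fish. The SE is the size of the log2 fold change over the square root of F. With 3 against 3 fish an exact permutation test cannot go below 0.1. It was run on the summed normalized counts of each list, and no result given here rests on it. Alternatives were other scalings (DESeq2 size factors, upper-quartile, total count), no filter, at least 30 counts in 3 fish, DESeq2 1.42.0, limma 3.58.1 on log2 CPM computed from the deposited counts (prior count 2), all 9 fish, the replicate number as a block, and leaving out each fish.

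Gene lists are patterns on the deposited descriptions. Lists, members and rules were chosen with earlier results of these data known, and exclusions in the lists were corrected by description after the tables were opened. Named by rule were the 12 gene models with the smallest p in each direction among calls without overlap, up to 4 called members per list (the 2 most abundant where none was called), the 10 most abundant, and the 8 with the most counts among those seen in all fish of 1 group and none of the other. Others, such as those high in 1 fish, were named after their values were seen. Tables and figures were made in Python 3.11.15 (numpy 2.4.6, pandas 2.3.3, scipy 1.17.1, matplotlib 3.10.9).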

Additional observations from a re-analysis of the deposited data

How the results depend on the processing

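The main count of 176 calls (69 higher, 107 lower) was 280 (249, 31) with total-count scaling, an alternative chosen after seeing the data, 565 (295, 270) without the low-count filter, 107 (40, 67) with the stricter filter and 117 to 273 without single fish (56 to 131 higher, 61 to 142 lower). DESeq2 size factors, upper-quartile factors, limma, all 9 fish in one fit and the replicate block gave 180, 171, 153, 146 and 183. DESeq2 gave 121, within 1.5 times the main count. Past the adjusted threshold there were 92 without the filter, 1 with DESeq2 and 0 in every other setting. Gene models without overlap numbered 872 without the filter, 211 with the stricter filter, for which fewer gene models are tested, and 708 to 968 without single fish, where fewer fish per group make this count larger.

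Cytosolic ribosomal proteins that fell numbered 7 with upper-quartile factors, 0 with total-count scaling, 6 without the filter, 2 with DESeq2, 2 with all 9 fish and 2 to 14 without single fish, against 11. Contractile genes that fell numbered 3 with total-count scaling, 18 without the filter, 2 with DESeq2, 5 with all 9 fish, 15 with the replicate block and 4 to 16 without single fish, against 8. Of 90 called gene models named by rule, 1 changed sign, MuRF1, at 0.01 without minimal flow fish 2 and down to -2.01 without other single fish. The causes were not tested.

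The replicate numbers gave no sign of pairing the fish, as deviations of same-numbered fish had correlations of 0.03, 0.08 and 0.00. Correlations over all gene models cannot exclude pairing that acts on few of them. With the replicate block 139 of the 176 calls were kept. With 3 fish per group and 1 tank per speed, log2 differences that are small beside their SE were not detectable, and speed and tank cannot be told apart.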
